A study of Ascaris suum with 12 samples.

Results

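The genes described here are those that Ascaris suum, a large roundworm of the pig intestine, removes from its somatic genome and that lie on genome scaffolds named AgE. They were taken from the deposited expression table as the rows marked eliminated and marked as the best expressed transcript of their gene, on any AgE scaffold except AgE51. Rows whose annotation names a major sperm protein, a zinc C2H2 protein, HUWE1 or a tudor protein were left out, which excluded 34 of 688 eliminated AgE genes with those of AgE51. The remaining 654 genes are 654 of 18025 genes in the table and lie on 82 scaffolds. No value of a region entered this choice, apart from what the authors used for their mark of the best expressed transcript. Coordinates are those of the table, whose genome build is not stated. Every one of the 2781 transcripts on AgE scaffolds was marked eliminated, so no gene there offers a retained comparison.

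In programmed DNA elimination, cells that become the body lose defined parts of the chromosomes during early cleavage, while the germline keeps the whole genome. A gene in the lost parts can therefore act only in the germline or in the embryo before the loss. Many nematode mRNAs receive their first bases from a separate short RNA, the spliced leader, by trans-splicing, and others keep the cap of their own first exon. Nematode sperm crawl on fibers of major sperm protein (MSP), and several kinases, phosphatases and membrane fusion proteins of Caenorhabditis elegans act in making and activating such sperm.

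RNA came from adult worms of the North American wildtype strain, collected from pig intestines and dissected by germline region. The male germline was sampled at its mitotic region, at spermatogenesis, after meiosis (the post-meiotic region), in the seminal vesicle and as spermatids. The female germline was sampled at its mitotic region, at early and at late pachytene, at diplotene and as oocyte. Each region is 1 library of total RNA depleted of ribosomal RNA, with no treatment, so no value below has an error from replicates and no p-value is given. Levels are RPKM, reads scaled by transcript length and library size, which allows levels of different genes to be set side by side.

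The steps between low values put the 10 libraries at 9060000 reads or fragments (diplotene) to 35400000 (seminal vesicle). Detection of a long low transcript is limited by the 1 decimal of the table, since 1 read in 1800 nt is worth 0.016 to 0.061 RPKM. The seminal vesicle library listed 25.5% of all transcripts at 0, against 8.10% to 15.7% in the other 9. The labels were checked with marker lists. The 17 MSP genes, none of them among the 654, summed to 14844 RPKM in the male mitotic region, 37933 at spermatogenesis, 27318 post-meiotically, 397 in the seminal vesicle and 3208 in spermatids, and to 52.1 to 93.8 in the 5 female regions. Conversely, the 33 oocyte and eggshell genes summed to 245 to 2208 RPKM in male regions and to 9938 to 105476 in female regions. Vitellogenin and other intestine and yolk markers were low everywhere, at a sum of 1.4 to 23.6 RPKM over 14 genes. Cuticle genes reached a sum of 4669 RPKM in spermatids, against 225.5 in the lowest male region and 281 to 840.5 in female regions. The median cuticle gene was at 0.1 RPKM in spermatids. Of 182 cuticle genes 46 reached 1 RPKM there, against 52 in the male mitotic region, so only part of the list carries this sum. Muscle genes summed to 94.4 to 1102 RPKM in male and 620 to 1250 in female regions, and neuron genes to 156.5 to 334.5 and 525.6 to 669.5. Their part in the results below was not tested.

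The eliminated AgE genes were most abundant early in the male germline. Their median was 9.4 RPKM in the male mitotic region and 8.5 in spermatogenesis, then 1.4 post-meiotically, 0.1 in the seminal vesicle and 1.1 in spermatids. In the female germline the medians were 0.85 in the mitotic region, 0.6 in early and in late pachytene, and 0.2 in diplotene and in the oocyte. With libraries rescaled by median ratios the first pair of medians was 5.50 and 19.5 RPKM, so their order depends on the scaling. Retained genes, 17099 in number, had another profile. Their medians were 2.4 RPKM in the male mitotic region and 0.9 in spermatogenesis, and 1.5 to 1.8 in the 5 female regions. Eliminated genes on AgB scaffolds, 238 in number, lay between these sets in spermatogenesis with a median of 5.5 RPKM, and in the female mitotic region they were at 2.75. Only the AgE set was filtered by annotation words, so eliminated AgB genes, retained genes and all genes keep any genes of those kinds.

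**Figure D1:**
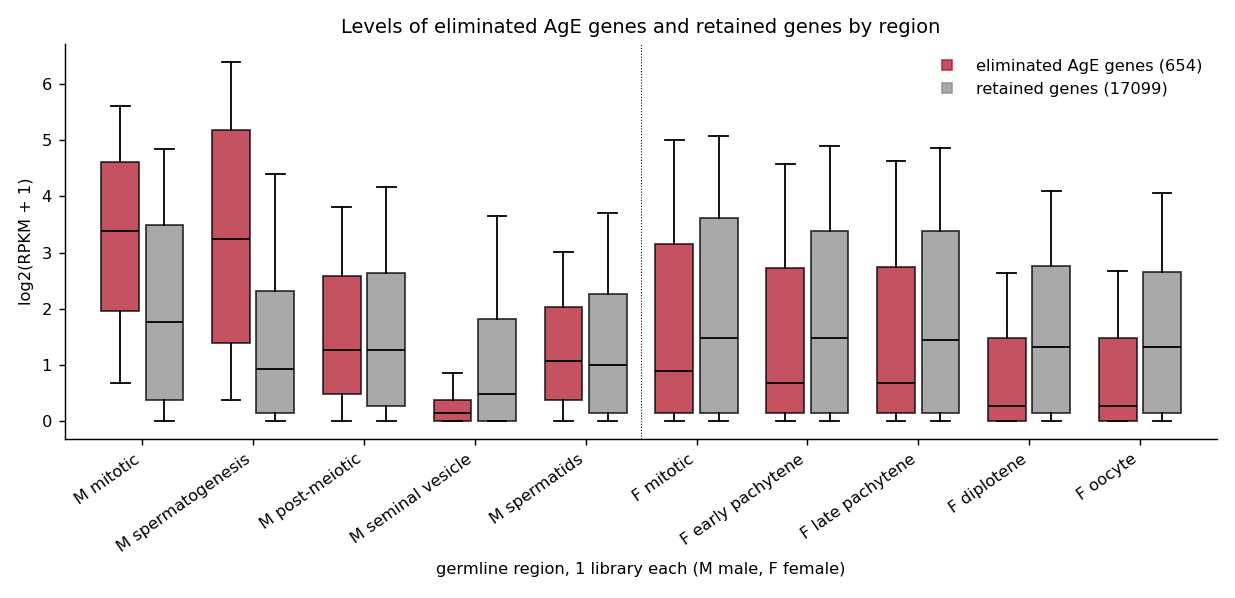
Levels in each germline region (x axis) as log2(RPKM + 1) (y axis) for 654 eliminated AgE genes (red) and 17099 retained genes (grey), 1 library per region; the line is the median, the box the quartiles and the whiskers the 10th and 90th percentiles over genes. The red medians stand above the grey ones in the male mitotic region and spermatogenesis and below them in the seminal vesicle and in all 5 female regions.

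Detection followed the same course. At 1 RPKM or more were 574 of 654 genes in the male mitotic region, 532 in spermatogenesis, 386 after meiosis, 57 in the seminal vesicle and 356 in spermatids. These are 87.8%, 81.3%, 59.0%, 8.72% and 54.4% of the set, against 63.5%, 50.9%, 55.8%, 36.6% and 51.6% of all genes. In the female germline 317 genes reached that level in the mitotic region, 288 in early pachytene, 287 in late pachytene, and 218 in diplotene and in the oocyte. From the mitotic region to the oocyte these are 48.47%, 44.04%, 43.88%, 33.33% and 33.33% of the set. The shares of all genes were 56.54%, 55.82%, 55.45%, 55.56% and 55.79%, so the set lay below them in every female region. In all, 343 genes reached 1 RPKM in both sexes, 245 in the male germline but in no female region, and 8 in the female germline but in no male region. How all genes divide in this way was not computed, so this split has no background beside it. The highest value over the 10 regions was 10 RPKM or more for 413 genes (63.1%, against 46.1% of all genes). It was between 1 and 10 for 183 and under 1 for 58, of which 7 were listed at 0 throughout. At the upper end, 71 genes reached 100 RPKM in some region.

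Most genes that reached 10 RPKM had their highest value in the region of spermatogenesis. There were 241 such genes, 36.9% of all 654, against 26.9% of eliminated AgB genes, 8.29% of retained genes and 9.60% of all genes. The male mitotic region was the highest for 77, the female mitotic region for 65, early pachytene for 13, late pachytene for 6, the oocyte for 5 and the seminal vesicle for 3. The male mitotic share was 11.77% of the 654, against 6.38% of all genes. The female mitotic region held 9.939%, against 12.04% of all genes, and early pachytene 1.988%, against 4.627%. Late pachytene held 0.9174%, against 1.997%, the oocyte 0.7645%, against 3.49%, and the seminal vesicle 0.4587%, against 2.63%. Post-meiotic region, spermatids and diplotene each held the highest value of 1 gene (0.1529%), against 2.169%, 0.7989% and 2.402% of all genes. The call of a peak depends on how libraries are scaled: with libraries rescaled by median ratios, 362 genes peaked in spermatogenesis and 16 in the male mitotic region. The rescaled shares of peaks over all genes were not computed.

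**Figure D2:**
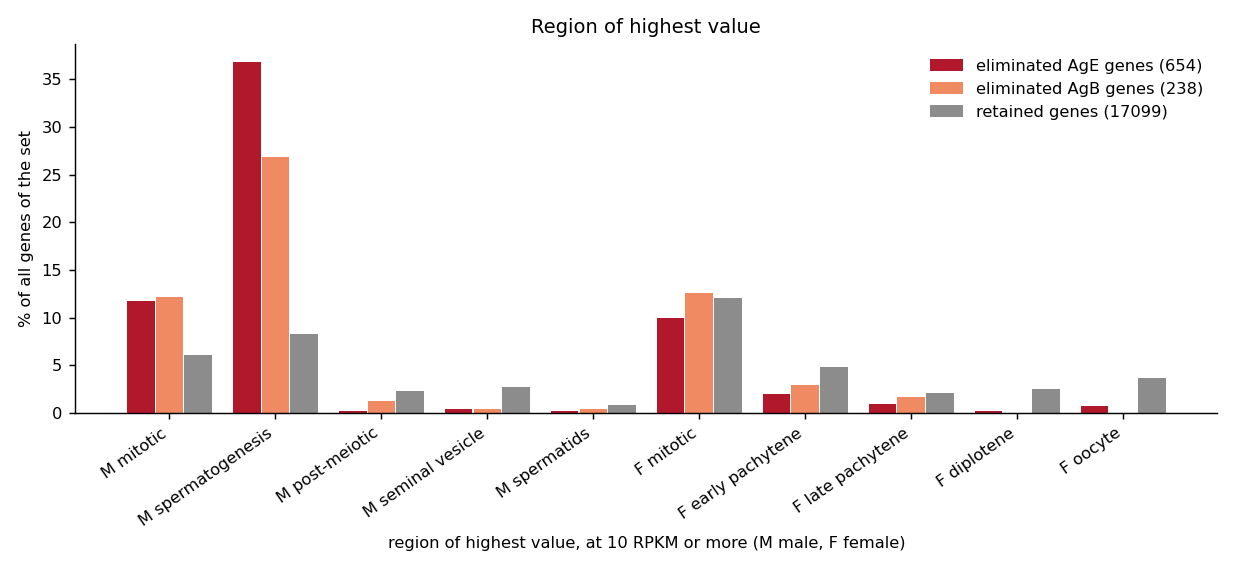
Percent of all genes of each set (y axis, from 0) whose highest value lies in each region (x axis) and reaches 10 RPKM, for eliminated AgE genes (red), eliminated AgB genes (orange) and retained genes (grey), 1 library per region. In spermatogenesis the bars stand at 36.9%, 26.9% and 8.29%.

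The 241 genes that peaked in spermatogenesis were then followed along the regions as a percent of that highest value. Their medians were 38.4% in the male mitotic region (quartiles 27.4% and 58.7%), 11.8% post-meiotically, 0.373% in the seminal vesicle and 3.52% in spermatids, and 0.671% in the female mitotic region and 0.141% in the oocyte. The summed MSP markers, which are not part of this set, stood at 39.1% of their spermatogenesis level in the male mitotic region, at 72.0% after meiosis and at 8.46% in spermatids. A few abundant genes carry these sums. The median over the 17 MSP genes was 25.4 RPKM in the male mitotic region, 70.3 in spermatogenesis, 13.7 after meiosis and 2.5 in spermatids, so their level after meiosis relative to spermatogenesis is lower by the median than by the sum. Whether sperm-forming cells in the mitotic sample have a part in its values was not tested. In these bulk samples fewer cells of a kind and less RNA per cell cannot be told apart.

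The 90 genes highest in a female region had a second profile. They stood at a median of 42.8% of their peak in the male mitotic region and at 8.40% in spermatogenesis, while early pachytene held 66.9% and the oocyte 11.7%.

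The mitotic regions were compared first between the sexes. A gene was called at a 4-fold difference of RPKM + 1 with at least 10 RPKM in the higher region. In the male mitotic region 180 of 654 eliminated AgE genes (27.5%) were higher than in the female mitotic region, against 6.63% of all genes, and 14 (2.14%) were lower, against 4.34% of all genes. The median difference was 1.14 on the log2(RPKM + 1) scale over the 654 genes and 0 over all genes. Paxillin, an adaptor protein of cell adhesion sites, had 522.9 RPKM in the male mitotic region against 0.7 in the female one, a difference of 8.27. Lower in the male were Tubulin alpha-2 chain (48.1 against 448.1 RPKM, a difference of -3.19) and Fem-3 mRNA-binding factor 2 on AgE13 (16.5 against 87.5 RPKM, -2.34).

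From the male mitotic region to spermatogenesis the calls depended on the scaling of the libraries and on the fold asked for. As deposited, 40 genes (6.12%) were higher in spermatogenesis, against 2.11% of all genes, and 53 (8.10%) were lower, against 9.81% of all genes. The median difference was 0.07 over the eliminated AgE genes and -0.30 over all genes. After rescaling by median ratios, 273 were higher and 0 were lower, with 13.0% and 0.355% of all genes called in these directions. At 2-fold on the deposited scale 157 were higher and 89 lower, against 6.34% and 15.3% of all genes, so the balance of higher and lower calls turned under either change. The rescaled medians were 1.70 over the 654 genes and 0.15 over all genes. On both the deposited and the rescaled values the eliminated AgE genes thus lay above the median of all genes. Myosin-VI, a motor that moves toward the minus end of actin filaments and acts in spermatogenesis of C. elegans, was at 473.7 RPKM in spermatogenesis and 58.5 in the male mitotic region, a difference of 3.00. FACT complex subunit SSRP1 on AgE01, a histone chaperone subunit, was lower, at 13.8 against 145.4 RPKM (-3.31).

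The step after meiosis ran one way for nearly all called genes. In the post-meiotic region 232 genes (35.5%) were lower than in spermatogenesis, against 7.8% of all genes, and 3 (0.459%) were higher, against 5.67% of all genes. The median difference was -1.74 over the 654 genes and 0 over all genes. Rescaling gave 375 lower and 2 higher, against 15.001% and 3.501% of all genes, with medians of -2.71 and -0.17. Protein phosphatase 1 regulatory subunit 7, a regulator of that phosphatase, had 2.4 RPKM after meiosis and 49.2 in spermatogenesis (-3.88). The gene AgE49_g003, named for a translation initiation factor of the 4E family, which binds the mRNA cap, was at 6.4 and 88.6 RPKM (-3.60). The 3 genes higher in the post-meiotic region were abundant larval transcript-2 protein (12.9 against 0.2 RPKM), an esterase (10.7 against 0.8) and a 2-exon model named for a voltage-dependent calcium channel subunit (15.3 against 1.6).

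The meiotic regions of the sexes were compared in the same way. In spermatogenesis 250 genes (38.2%) were higher than in early pachytene, against 9.34% of all genes, and 59 (9.02%) were lower, against 15.6% of all genes. Medians were 1.43 over the 654 genes and -0.22 over all genes. Rescaling gave 334 higher and 18 lower, against 15.8% and 6.32% of all genes, with medians of 2.70 and 0.07. In the oocyte 96 genes (14.7%) were lower than in the female mitotic region, against 11.5% of all genes, and 1 (0.153%) was higher, against 2.86%. The share of lower calls in the oocyte is thus near that of all genes, and rescaling gave 38 lower genes and 5 higher, with 2.80% and 6.16% of all genes. That single higher gene, the esterase AgE17_g010, was at 10.4 RPKM in the oocyte and 1.0 in the female mitotic region.

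**Figure D3:**
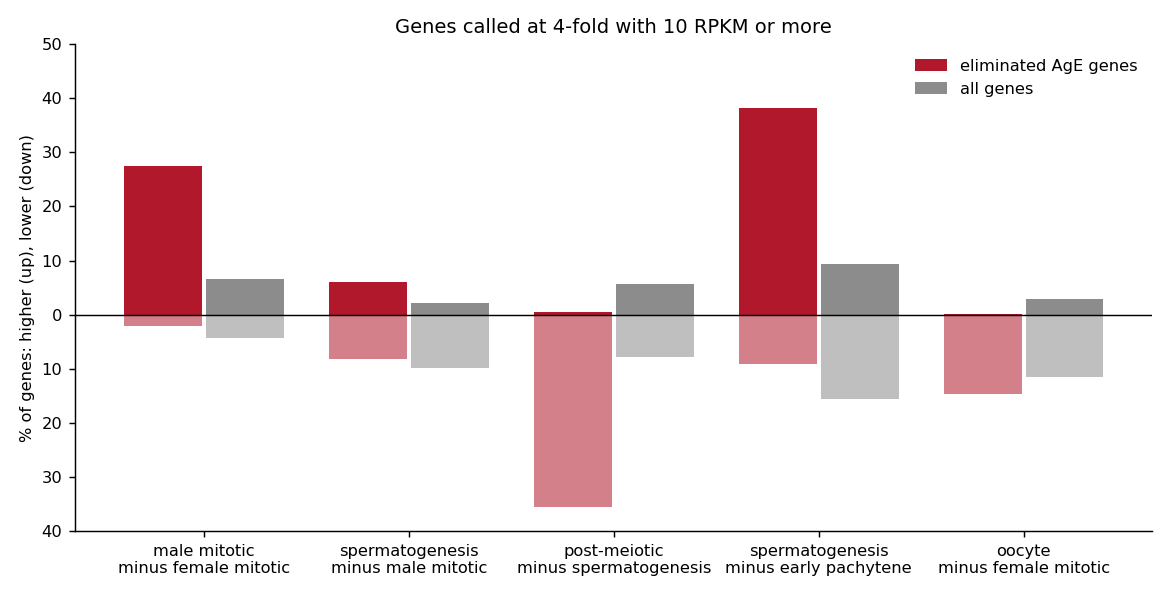
Percent of genes called higher (bars up) or lower (pale bars down) at 4-fold with 10 RPKM or more in 5 comparisons (x axis), for 654 eliminated AgE genes (red) and all 18025 genes (grey), on the deposited scale and with 1 library per region. The red bars stand at 27.5% higher for the mitotic regions, 35.5% lower after spermatogenesis and 38.2% higher in spermatogenesis over early pachytene.

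A stricter comparison asked for a 2-fold gap between every region of one sex and every region of the other. Above all female regions in every male region were 7 genes (0.555% of all genes met this), and 3 genes were below (2.12% of all genes). The seminal vesicle sets this number: without that library 92 genes were above, with 3.58% of all genes, and 3 below, with 2.27%. The 7 were paxillin, methylmalonyl-CoA epimerase, both gene models named branched-chain-amino-acid aminotransferase, pyruvate dehydrogenase E1 component subunit alpha, and AgE18_g006 and AgE56_g003, which have no descriptive annotation. The 3 were the helicase INO80, a serpin-like protein and AgE01_g024.

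The gene with the highest value of the set is a metabolic enzyme. The alpha subunit of pyruvate dehydrogenase E1, the enzyme that feeds pyruvate into acetyl-CoA, is AgE58_g002 (AgE58:13348-21081, 11 exons). It was at 666.6 RPKM in the male mitotic region, 2234.3 at spermatogenesis, 1132.5 after meiosis, 14.3 in the seminal vesicle and 118.7 in spermatids. In the female regions it was at 5.2, 6.0, 4.0, 4.7 and 3.0 RPKM from the mitotic region to the oocyte, so no female value reached the lowest male one. The neighbouring model of the same name, AgE58_g001, overlaps it and was at 25 RPKM in spermatogenesis.

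Methylmalonyl-CoA epimerase, an enzyme of propionate metabolism, is AgE03_g012 (AgE03:117625-124070, 5 exons). It was at 174.5, 405.9, 54.0, 2.5 and 21.4 RPKM from the male mitotic region to spermatids, and at 0.1 to 0.7 RPKM in the female regions. The aminotransferase AgE25_g003, which removes the amino group from branched-chain amino acids, had 91.1, 445.3, 281.0, 3.8 and 27.2 RPKM in the male series and 0.3 to 0.6 in the female regions. A later enzyme of that breakdown, 2-oxoisovalerate dehydrogenase subunit beta (AgE16_g005), was at 241.0 RPKM in spermatogenesis and 191.2 in the male mitotic region, against 65.3 in the female mitotic region. Propionyl-CoA carboxylase beta chain (AgE06_g014) was nearly even between the first male regions, with 108.9 RPKM in spermatogenesis and 121.0 in the male mitotic region, and had 65.8 in the female mitotic region. Of 39 genes in the list of metabolic enzymes, 27 reached 10 RPKM and 16 peaked in spermatogenesis, where 89 of the 1281 genes of this list in the whole table peaked. The list goes by words such as hydrolase and transferase. It thus also holds the 5 genes named ubiquitin carboxyl-terminal hydrolase 7 and the RNA cytidine acetyltransferase AgE01_g044, and does not describe metabolism alone. Of the 39 genes 17 were higher in spermatogenesis than in early pachytene and 2 were lower, against 82 and 285 of those 1281, and 9.34% and 15.6% of all genes. The median difference was 1.93 over the 39, beside -0.22 over all genes.

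Cytoskeletal genes divided between the sexes. Paxillin, AgE02_g028 (AgE02:379010-387782, 7 exons), was at 522.9, 1061.7, 140.1, 6.3 and 49.3 RPKM from the male mitotic region to spermatids and at 0.3 to 1.9 RPKM in the female regions. Its span is shared with 3 other gene models, 1 of them a long MSP model, and whether counting used strand is not stated in the labels, so reads of these genes may not be fully separated. Regulator of microtubule dynamics protein 2 (AgE01_g017) was at 562.5 RPKM in spermatogenesis and 287.7 in the male mitotic region, with 0.5 to 1.5 in the female regions. Its namesake protein 1 (AgE25_g002) had 312.3 and 59.3 RPKM in the same male regions and 0.3 to 0.8 in the female regions.

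The tubulins had the opposite profile. Tubulin alpha-2 chain (AgE01_g014, AgE01:190925-196252), one subunit of microtubules, was at 48.1, 28.4, 8.0, 1.4 and 4.2 RPKM from the male mitotic region to spermatids. In the female series it was at 448.1, 477.5, 478.4, 78.3 and 47.6 RPKM from the mitotic region to the oocyte, so the oocyte and the male mitotic region were alike in level. Tubulin beta-1 chain (AgE31_g003), the partner subunit, had 211.7, 71.1, 22.0, 2.1 and 29.4 RPKM in the male series and 432.7, 332.6, 339.3, 79.6 and 145.2 in the female series. Both tubulins were lower in spermatogenesis than in early pachytene by the 4-fold rule, with differences of -4.02 and -2.21. Of 12 genes in the list of cytoskeleton and motors, 6 peaked in spermatogenesis and 3 in a female region, while 75 of 332 genes of this list in the whole table peaked in spermatogenesis. The list goes by words in names and also took in kinases. These are the 3 genes named tau-tubulin kinase 2, at 39.2 to 161.2 RPKM in spermatogenesis, and tau-tubulin kinase 1 (AgE06_g006), at 78.3. All of them peaked there and are also among the genes named kinase below. Of the 6 peaks, only those of paxillin and Myosin-VI are not of these kinases, so the counts do not describe cytoskeletal and motor genes alone.

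Genes named kinase or phosphatase were mostly highest in spermatogenesis. Of 31 genes named kinase 26 reached 10 RPKM and 19 of them peaked there, against 156 of 617 genes named kinase in the whole table. Spermatogenesis was higher than early pachytene for 21 and lower for 2, against 149 and 141 of the 617, and 9.34% and 15.6% of all genes. The median difference was 3.91 over the 31, beside -0.22 over all genes. Tyrosine-protein kinase Fer, a non-receptor kinase with an SH2 domain, is the name of 5 genes on 5 scaffolds, and all 5 peaked in spermatogenesis. The 3 genes named for the related kinase Fps85D did so too, but they differed in the female germline. AgE03_g026 had 151.6 RPKM in spermatogenesis and 0.3 in early pachytene, whereas AgE02_g027 had 153.3 and 147.7. Tau-tubulin kinase 2 (AgE57_g001), a member of the casein kinase 1 group, was at 161.2 RPKM in spermatogenesis and at 0 to 0.2 in the female regions.

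The 2 genes of this list with a female peak were also the 2 lower in spermatogenesis. Phosphoglycerate kinase (AgE29_g005), an enzyme of glycolysis and not of signalling, had 16.2 RPKM in spermatogenesis and 162.4, 135.3, 129.1, 35.8 and 69.9 in the female series. The proto-oncogene kinase pim-1 (AgE06_g013) had 3.0 RPKM in spermatogenesis and 66.6, 95.6, 93.1, 36.7 and 28.8 in the female series. Of 14 phosphatases 12 peaked in spermatogenesis, as did 113 of 329 phosphatases in the whole table. Serine/threonine-protein phosphatase PP1 (AgE12_g002) was among the 12, with 205.8 RPKM there and 0.1 to 0.9 in female regions. Tyrosine-protein phosphatase non-receptor type 9 (AgE02_g002) was the 1 with a female peak, with 1.0 RPKM in spermatogenesis and 70.1 in late pachytene. The list median for spermatogenesis minus early pachytene was 4.49 for the 14 phosphatases, beside -0.22 over all genes. Insulin-like receptor AgE25_g008, a name given to receptor tyrosine kinases, was at 559.6 RPKM in spermatogenesis, 207.6 in the male mitotic region and 2.1 to 9.8 in the female regions.

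Few genes of the set carry a sperm name once the MSP genes are left out. There are 4, and 3 of them peaked in spermatogenesis, as did 55 of 88 genes of this list in the whole table. The MSP domain containing protein AgE02_g005 was at 133.5 RPKM in spermatogenesis and at 0 to 0.4 in female regions. Sperm vesicle fusion protein fer-1, needed in C. elegans for the fusion of sperm vesicles with the cell membrane, names AgE05_g014, with 41.7 RPKM in spermatogenesis and 28.5 in the male mitotic region, and AgE02_g038, with 12.9 and 13.4. Sperm-specific class P protein 32 (AgE01_g006) was at 13.5 RPKM in spermatogenesis and 4.6 in the oocyte.

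Transporters, channels and receptors numbered 17, of which 14 reached 10 RPKM and 9 peaked in spermatogenesis, against 86 of 1049 in the whole table. The transient-receptor-potential-like protein AgE13_g006, a cation channel by name, had 81.6 RPKM in spermatogenesis and 0 to 0.1 in female regions. Solute carrier family 22 member 6 (AgE01_g058), an organic anion transporter by name, had 91.7 RPKM in spermatogenesis and 0 to 0.1 in the same female regions. Of 19 genes of the ubiquitin list 9 peaked in spermatogenesis, against 49 of 352 in the whole table, led by the f-box protein AgE08_g016 at 154.9 RPKM. Ubiquitin-conjugating enzyme E2 2 (AgE06_g010) instead had 8.9 RPKM in spermatogenesis and 61.4 in the male mitotic region.

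Chromatin genes were described next. In the chromatin and transcription list 4 of 25 peaked in spermatogenesis, against 24 of 596 in the whole table, 14 peaked in some male region and 3 in a female one, and the median of spermatogenesis minus early pachytene was -0.08, beside -0.22 over all genes. This list goes by words in names and also took in both genes named histone RNA hairpin-binding protein, so it does not describe chromatin genes alone. SSRP1 on AgE01, whose name holds none of the words of the list, is not in it. It was at 145.4, 13.8, 3.8, 0.7 and 11.1 RPKM in the male series, and at 164.4, 144.4, 144.5, 42.7 and 93.0 from the female mitotic region to the oocyte. The other 2 SSRP1 genes differed from it. AgE37_g003 peaked in spermatogenesis at 49.0 RPKM, and AgE19_g004 in the seminal vesicle at 36.8. Of the 11 genes in the RNA-binding and small RNA list 0 peaked in spermatogenesis, which with so few genes is near the 7 of 238 in the whole table and the 9.60% of all genes. Their median of spermatogenesis minus early pachytene was -1.24, beside -0.22 over all genes. The list goes by words in names, and the word helicase brought in 4 genes named ATP-dependent helicase brm and the DNA helicase INO80. Its values therefore do not describe RNA-binding and small RNA genes alone.

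Genes named for RNA regulators of the germline had mixed profiles. Fem-3 mRNA-binding factor 2, a PUF protein that in C. elegans keeps germline stem cells dividing, names genes on AgE13, AgE15 and AgE23, and all of them peaked in the female mitotic region. AgE13_g013 was at 16.5, 2.0, 0.9, 0.2 and 4.1 RPKM in the male series and at 87.5, 76.1, 74.5, 13.5 and 14.5 in the female series. AgE15_g013 had 9.2 RPKM and AgE23_g005 had 5.0 in the male mitotic region, against 44.3 and 13.4 in the female mitotic region. DAZ protein 1 (AgE15_g007), of a family of germ cell RNA-binding proteins, had 34.6, 3.2, 0.8, 0.3 and 3.6 RPKM in the male series and 69.2, 106.9, 88.1, 4.2 and 21.0 in the female series. Poly(A) RNA polymerase gld-2, which lengthens the tails of germline mRNAs in C. elegans, was less one-sided, with 48.2 RPKM in the male mitotic region, 49.1 in spermatogenesis and 58.6 in the female mitotic region for AgE36_g004. The gene named for gld-1 (AgE20_g005), an RNA-binding protein of the C. elegans germline, peaked in spermatogenesis instead, with 57.2 RPKM there, 44.9 in the male mitotic region, 21.7 in the female mitotic region and 8.1 in early pachytene.

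Names of proteins of meiotic chromosomes also differed in profile. HORMA domain-containing protein 1, of the family that lines the axes of meiotic chromosomes, names 3 genes with 18.3 to 28.8 RPKM in the male mitotic region, against 18.7 to 36.5 in the female mitotic region. Spermatogenesis held 2.2 to 2.5 RPKM of them and early pachytene 8.6 to 23.8. Homologous-pairing protein 2 (AgE03_g017), which acts in meiotic recombination, had 2.3 RPKM in spermatogenesis and 25.4 to 32.3 in the female mitotic and pachytene regions, and peaked in the oocyte at 36.9. Structural maintenance of chromosomes protein 3 (AgE08_g013), a cohesin subunit, ran the other way, with 62.6 RPKM in the male mitotic region, 61.4 in spermatogenesis and 14 in early pachytene. The other gene of that name, AgE03_g018, had 1.5 RPKM in spermatogenesis and 3.1 in early pachytene. Both genes named structural maintenance of chromosomes protein 1A peaked in a female region. They had 12.6 to 20.8 RPKM in the female mitotic region, 8 to 10.8 in spermatogenesis and 6.7 to 7.1 in early pachytene. The 4 genes named proteophosphoglycan ppg4, on AgE54 and AgE77, were like one another, with 1.1 to 2.4 RPKM in spermatogenesis and 55.3 to 75.2 in the female mitotic region. The HORMA, structural maintenance of chromosomes, gld-1, gld-2, Fer, AgE23 and further SSRP1 examples were chosen after their values were seen.

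**Figure D4:**
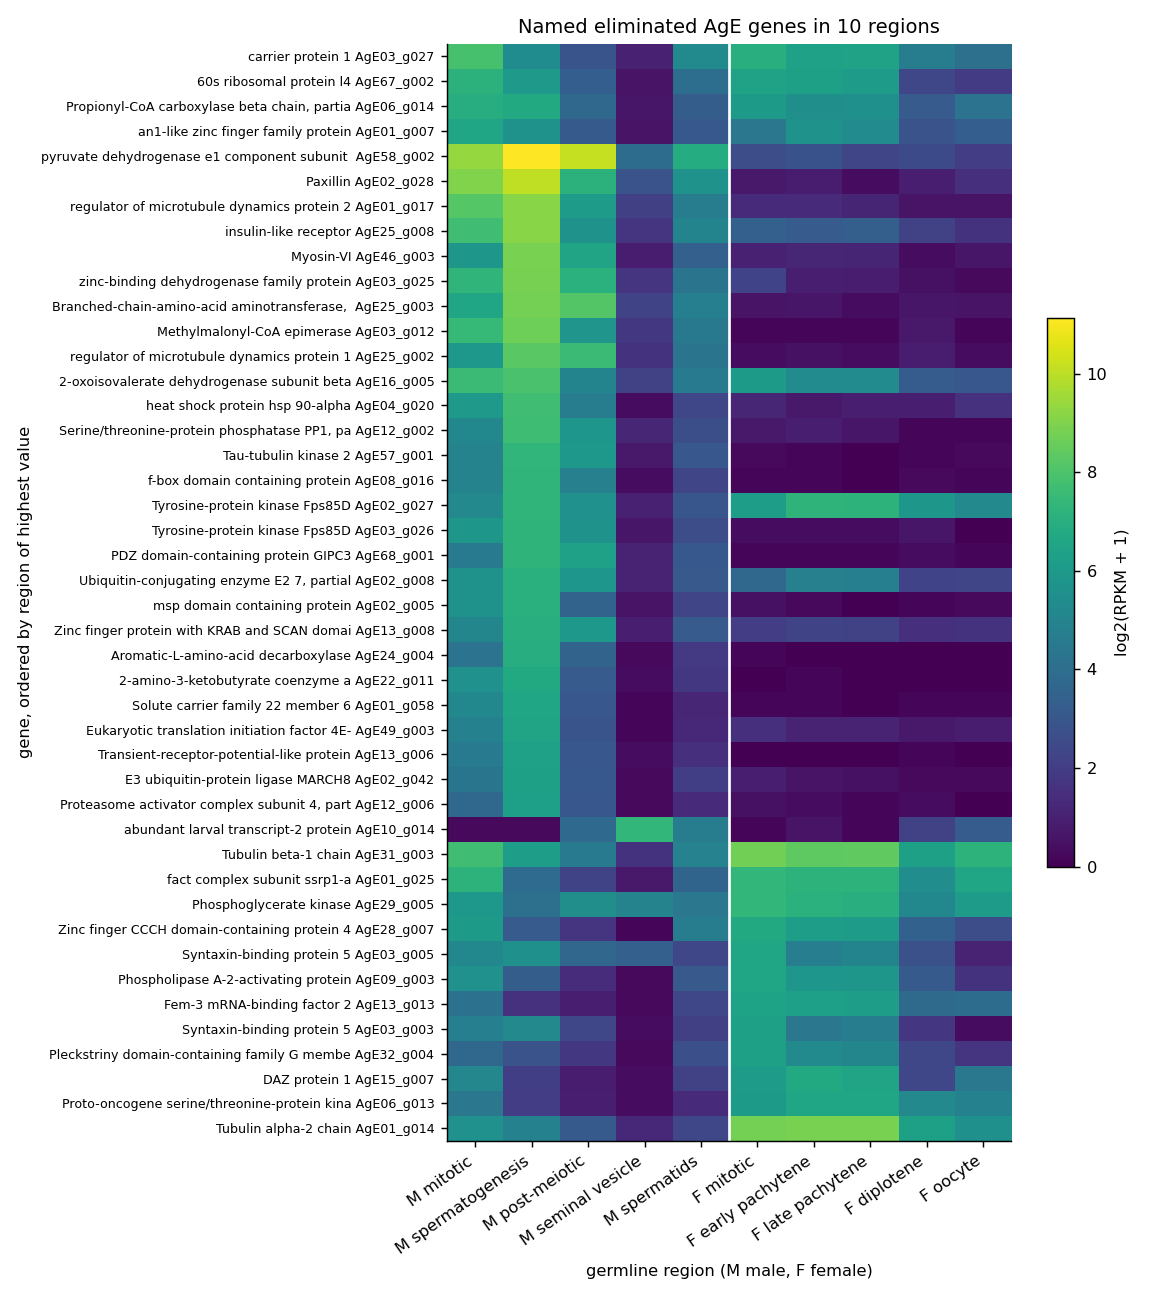
Levels as log2(RPKM + 1) (colour) of 44 eliminated AgE genes with a descriptive annotation and the highest maxima among the genes named by rule (rows, ordered by region of highest value) in the 10 germline regions (columns, male left of the white line), 1 library per region. Of these genes 32 are brightest in a male region, most of them in spermatogenesis, and 12 in a female region, tubulin alpha-2 and beta-1 among them.

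The seminal vesicle library, where the median eliminated AgE gene stood at 0.1 RPKM, had its own pair of neighbours. Abundant larval transcript-2 protein, a name given to a secreted protein of larval nematodes, is carried by AgE10_g013 and AgE10_g014. AgE10_g014 was at 0.2, 0.2, 12.9, 166.2 and 25.3 RPKM in the male series and at 0.1 to 8.4 in the female regions. AgE10_g013 had 56.3 RPKM in the seminal vesicle and 3.0 to 9.6 in the other male regions.

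There were 10 named transposon genes, of 167 in the whole table. Of the 10, 2 reached 10 RPKM, as did 31 of the 167, and both peaked in spermatogenesis, as did 7 of the 167. LINE-1 reverse transcriptase (AgE08_g021) was at 45.0 RPKM there and 0.1 to 0.3 in female regions, and the Tf2 retrotransposable element protein AgE12_g005 was at 17.6 RPKM there. The translation list held 18 genes, with 5 peaks in spermatogenesis, against 9 of 411 in the whole table, and 12 in some male region. Its words initiation factor also brought in 2 transcription initiation factors, TFIID subunit 7 (AgE04_g021) and IIB (AgE18_g008). These peaked in the male mitotic region, at 61.6 and 25.8 RPKM, and are among the 12. Eukaryotic translation initiation factor 3 subunit D (AgE01_g002) was at 76.0 RPKM in spermatogenesis and 1.0 to 1.8 in female regions. The 60S ribosomal protein L4 gene AgE67_g002 had 141.7 RPKM in the male mitotic region, against 84.5 in the female mitotic region.

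Most of the set falls in no list. Of 654 genes 459 match none of the 15 lists, and 294 have no descriptive annotation. The genes without one were shorter, with a median of 1337.5 nt, against 2494.5 nt for those with one, and 144 of them (49.0%) reached 10 RPKM, against 269 of 360 (74.7%). Among those 144, 105 peaked in spermatogenesis and 22 in a female region. AgE56_g003 (924.2 RPKM) and AgE18_g006 (696.4 RPKM) had the highest of these spermatogenesis values. A further pair was abundant in the female germline: AgE02_g012 at 8.0 RPKM in spermatogenesis and 654.0 in early pachytene, and AgE01_g024 at 6.3 and 412.5.

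Shared names did not always mean shared profiles. Among annotated genes 67 names were shared by 2 or more, covering 165 genes. For 44 names at least 2 genes reached 10 RPKM. The peaks of these genes were all in male regions for 28 names, all in female regions for 8 and in both sexes for 8. Telomerase-binding protein EST1A is 1 of the last kind, with AgE01_g053 at 47.4 RPKM in spermatogenesis and 0.5 in the female mitotic region, and AgE08_g018 at 10.5 and 23.6. This choice of example was made after the values were seen.

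A further comparison, also added after the data were seen, set each eliminated AgE gene beside the retained gene of the same name. For 121 genes there is exactly 1 such retained gene, 91 in all. The eliminated gene was above the retained one in spermatogenesis for 77 of 121 and in early pachytene for 35. Medians were 10.5 RPKM for the eliminated and 3.3 for the retained genes in spermatogenesis, and 3.1 and 10.9 in early pachytene. At 10 RPKM or more, 49 of the eliminated and 12 of the retained partners peaked in spermatogenesis, counting a retained gene once for each pair. A wider set of 190 pairs, under a minimum level, took in names with more retained genes. For such names the partner was the retained gene with the highest value in any region. In the 190 pairs the eliminated gene was above in spermatogenesis for 107 and in early pachytene for 55, and 100 eliminated and 57 retained partners peaked in spermatogenesis. For the 73 of these with 1 retained gene, the counts were 51, 19, 34 and 10.

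The pair whose eliminated gene reached the highest level is that of pyruvate dehydrogenase. The eliminated AgE58_g002 was at 2234.3 RPKM in spermatogenesis and 3.0 in the oocyte, against 6.5 and 101.6 for the retained AgR124_g001. For methylmalonyl-CoA epimerase the eliminated gene had 405.9 RPKM in spermatogenesis and 0.1 in early pachytene, against 0.4 and 14.7 for the retained one. Ribonuclease ZC3H12A, an mRNA-degrading enzyme, was at 202.8 and 0.2 RPKM for the eliminated AgE02_g006, against 0.6 and 23.1 for its retained namesake. Other pairs did not show it: the eliminated msp domain gene AgE02_g005 was at 133.5 RPKM in spermatogenesis and its retained namesake at 272.7. Equal names do not establish a common origin, and reads of near-identical copies could be split by the counting.

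**Figure D5:**
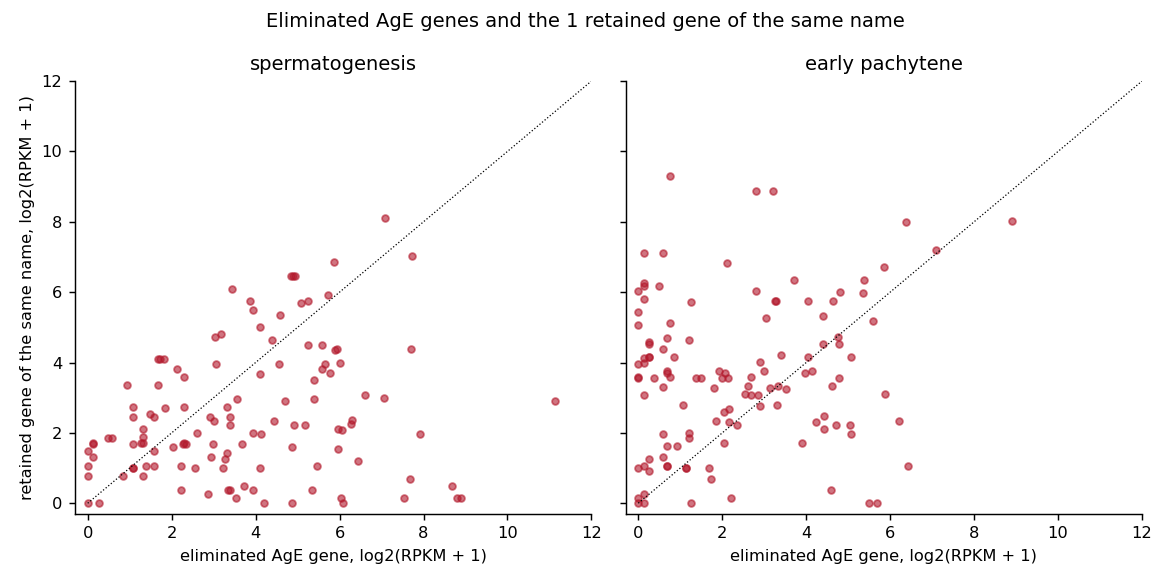
Levels of 121 eliminated AgE genes (x axis) and the 1 retained gene of the same name (y axis) as log2(RPKM + 1) in spermatogenesis (left) and early pachytene (right), with the line of equal levels dotted, 1 library per region. Left, 77 of 121 points lie below the line, where the eliminated gene is higher; right, 35 do.

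Transcript starts were set beside the profiles. The table has a mark for trans-spliced transcripts, written SL, and a mark for transcripts not trans-spliced, written Telo. The words are those of 2 libraries of 5' ends from a mixed sample, and the marks are called spliced leader and capped start here. A spliced leader was marked for 127 of 654 eliminated AgE genes (19.4%), against 24.4% of eliminated AgB genes and 41.0% of retained genes. A capped start was marked for 129 (19.7%), against 16.8% and 12.2%. Of 93 genes with the capped start alone 86 reached 10 RPKM, and 76 of these peaked in spermatogenesis and 1 in a female region. Of 91 genes with the spliced leader alone 66 reached that level, with 14 peaks in spermatogenesis and 31 in a female region. Among retained genes 385 of 1062 with a capped start alone peaked in spermatogenesis at 10 RPKM or more, against 246 of 5994 with a spliced leader alone. Abundant transcripts are more likely to be seen at their start, and the makeup of the mixed sample is unknown here, so the part of level in these marks was not tested. For 434 genes neither start was marked.

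Gene structure was described from the table's models. Median transcript length was 1803.5 nt, against 1905 nt in retained genes, with 4.5 and 5 exons, and 19.1% had 1 exon, against 14.3%. The transcript with most exons is Myoferlin (AgE02_g034), with 43.2 RPKM in the male mitotic region, against 39.5 in the female mitotic region. Of 654 genes 235 overlap another gene model. Among the 419 that overlap none, 133 (31.7%) peaked in spermatogenesis, 105 (25.1%) were higher in the male than in the female mitotic region and 137 (32.7%) were higher in spermatogenesis than in early pachytene. Among the 235 that overlap another model these shares were higher, at 108 (46.0%), 75 (31.9%) and 113 (48.1%). Over all genes they were 9.60%, 6.63% and 9.34%.

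Along the scaffolds AgE01 holds most of these genes, 63, of which 39 reached 10 RPKM, 24 with a peak in spermatogenesis and 5 with one in a female region. AgE06 has a lower share, with 6 of 25 genes peaking in spermatogenesis, and AgE07 a higher one, with 13 of 21. Neighbours that do not overlap had a median Pearson r of 0.83 over the 10 regions for 198 pairs on the log2(RPKM + 1) scale, against 0.64 for 82277 pairs on different scaffolds. The quartiles overlapped widely, 0.28 to 0.96 for neighbours and 0.13 to 0.91 for the others, and 68.7% and 65.7% of the pairs peaked in the same sex. These pairs share libraries and genes, so the values only describe the set. On AgE25 the genes g002 to g005 lie side by side and all 4 peaked in spermatogenesis, although g002 to g004 overlap. Opposite profiles also shared a scaffold: on AgE03 the epimerase gene peaked in spermatogenesis, and AgE03_g003, named Syntaxin-binding protein 5, in the female mitotic region, with 0.3 RPKM in the oocyte and 79.7 in that region.

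At the low end, 3 genes with mitochondrial names, NADH dehydrogenase subunit 2 (AgE32_g002), cytochrome b (AgE34_g004) and ATP synthase subunit a (AgE82_g001), were at 0 to 1.1 RPKM in all 10 regions. Both genes named serine/threonine-protein kinase PLK1, a mitotic kinase, and both of those named Elongator complex protein 2 also stayed under 10 RPKM.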

How the data were processed

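The authors deposited 1 table with a value per transcript and germline region, written to 1 decimal. Its header names no unit. The deposited values were taken as RPKM because they scale with length and column totals differ, and the only tools listed, TopHat2 and Cufflinks, come without versions, per the submitters' processing notes. The sources used here do not state the genome build, the annotation, the use of strand or whether animals were pooled. RNA was extracted with Trizol, depleted with a Human/Mouse/Rat Ribo-Zero kit and prepared with TotalScript, per the labels' protocols. A depletion kit for mammals can leave differing amounts of ribosomal RNA, which changes every RPKM of a library.

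From these values were computed, with Python 3.11.15, pandas 2.3.3 and numpy 2.4.6, differences of log2(RPKM + 1), which understate changes of low genes, calls at 4-fold with 10 RPKM and regions of highest value. Each gene is 1 transcript, the one marked best expressed. Of 420 genes with 2 or more transcripts, it had the highest value in 142, so the highest transcript was tried as an alternative. Depth was read from steps of transcripts under 250 nt. The rules were tested on simulated data. The genes described, the 15 word lists, the rule for named genes and the tests were chosen with earlier results of these data known. Named genes were the 15 highest, the 5 largest called differences each way, the highest of each region and of the 8 scaffolds with most genes, up to 4 per list, and the longest and the one with most exons. Other genes were named after their values were seen. Alternatives were another pseudocount, no filter, rescaling by median ratios over 15277 transcripts, a 2-fold threshold, a minimum of 5 RPKM and leaving out the seminal vesicle. The 2 libraries of a mixed sample are not analysed here.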

Additional observations from a re-analysis of the deposited data

How the results depend on the processing

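With 1 library per region no replicate could be left out and no paired analysis was possible because no region has a second sample. Of 120 alternative values, 86 stayed within 1.5 times and 34 moved further. These are counts and medians with no sign of their own, but the contrast of spermatogenesis with the male mitotic region turned. As deposited it had 40 higher and 53 lower calls and medians of 8.5 and 9.4 RPKM, whereas higher calls outnumbered lower ones after rescaling and at 2-fold, and rescaling turned the order of the medians. Rescaling by median ratios gave 8 genes lower in the male than in the female mitotic region, against 2.32% of all genes. It gave 273 higher and 0 lower in spermatogenesis than in the male mitotic region, and 375 lower in the post-meiotic region than in spermatogenesis. There were 18 lower in spermatogenesis than in early pachytene, and 5 higher and 38 lower in the oocyte than in the female mitotic region. The rescaled shares of all genes in these later comparisons stand above. Rescaling set the medians to 5.50 RPKM in the male mitotic region, 19.5 in spermatogenesis, 0.165 in the seminal vesicle, 0.414 in the female mitotic region and 0.397 in early pachytene. It set the peaks to 362 in spermatogenesis and 16 in the male mitotic region, and the whole-germline gap to 15 genes above and 6 below. At a 2-fold threshold 47 genes were lower in the male mitotic region, against 10.4% of all genes, and 157 were higher and 89 lower in spermatogenesis than in the male mitotic region. In the post-meiotic region 5 were higher and in the oocyte 2, against 8.38% and 4.58% of all genes. With no filter on low values 4 were higher in the oocyte, 174 peaked in the male mitotic region and 137 in a female region. The highest transcript of each gene gave 2 higher in the oocyte. At a minimum of 5 RPKM 164 genes were detected in the post-meiotic region, 11 in the seminal vesicle, 104 in spermatids, 193 in the female mitotic region, 174 in early pachytene, 175 in late pachytene, 71 in diplotene and 72 in the oocyte. Shares of all genes were not computed for the rescaled peaks and gap, no filter, the highest transcript or the minimum of 5 RPKM. Those counts thus have no background beside them. Without the seminal vesicle library the whole-germline gap held 92 genes above. The causes of these shifts were not tested beyond the changed rule itself. Depth limits little here, since the table's single decimal is coarser than 1 read in a transcript of median length, and diplotene is the shallowest library.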
